A study of Mus musculus with 60 samples.

Results

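The genes described here are 34 mouse genes that type I interferons induce, listed by symbol. All 34 were among the 24411 genes of the deposited count table. Of the 9001 genes abundant enough to be tested, 33 were members, and Isg20 was not tested. The RNA came from 15 mice, 5 in each of 3 groups, and from their Kupffer cells, macrophages that live in the liver sinusoids. Trem1-deficient mice had received carbon tetrachloride (CCl4), wild-type mice had received CCl4, and wild-type mice had received corn oil as the control. All mice were C57BL/6J, 8 weeks old and labelled male. CCl4, a solvent that injures hepatocytes, was given in 1 dose of 2 µl per g body weight, with corn oil as the diluent (1:4), and livers were taken 12 h later. Cells carrying CD11b were first removed from the non-parenchymal fraction with magnetic beads, and cells carrying F4/80 were then collected from the rest. Trem1 codes for a receptor that amplifies inflammatory signals in monocytes and neutrophils, and the labels do not say how the gene was inactivated. No oil-treated Trem1-deficient mice were analysed here, so CCl4 cannot be set against oil within that genotype.

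Type I interferons bind a receptor made of the IFNAR1 and IFNAR2 chains, and the kinases JAK1 and TYK2 then phosphorylate STAT2. STAT2 and IRF9 are parts of the complex ISGF3, which binds GAAA repeats in the promoters of target genes. Among its targets are IRF7, which amplifies interferon production, sensors of foreign nucleic acid, and effectors that block the translation, assembly or release of viruses. Macrophages keep part of this programme on at a low level without infection.

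The libraries held 812320 to 2593004 counts assigned to genes, and levels are given as CPM, counts scaled to a common library size by TMM. A count of 0 leaves room for up to 3 counts, or 1.00 to 4.15 CPM. Trem1 had 1.17 to 10.9 CPM in Trem1-deficient CCl4 libraries, 111 to 575 CPM in wild-type CCl4 libraries and 32.9 to 109 CPM in wild-type oil libraries. The labels give each library an index number but name no series or batch. In column order the numbers rise from 15 to 87, then start again at 4 and rise to 88, and were read here as 2 series. The first holds 7 libraries, those of Trem1-deficient mice 1 and 2 and of every oil mouse. The other 8, of Trem1-deficient mice 3 to 5 and every wild-type CCl4 mouse, form a second series. The same division appears in sex-linked transcripts, although the labels name every mouse as male. Xist had 1 to 31 counts in the second series and 72 to 1552 in the first, and 4 Y-linked genes together had 134 to 425 counts in the second and 0 to 7 in the first. Index series and sex-linked transcripts thus cannot be told apart in any comparison below. In wild-type CCl4 against oil, neither can be told apart from treatment. The Trem1-deficient group holds mice of both series, so the other comparisons carry part of this division. Markers of cell types moved with the groups as well. The summed level of 11 Kupffer cell markers was 38789 to 56626 CPM in Trem1-deficient CCl4, 4155 to 15757 CPM in wild-type CCl4 and 29069 to 69778 CPM in wild-type oil libraries, and that of 14 hepatocyte markers, of which Ass1 was at 0 in every library, was 2399.9 to 21596 CPM in Trem1-deficient CCl4, 13656 to 49831 CPM in wild-type CCl4 and 3361 to 14622 CPM in wild-type oil libraries. For 10 monocyte markers it was 836 to 1803 CPM in Trem1-deficient CCl4, 2125 to 4461 CPM in wild-type CCl4 and 577 to 1125 CPM in wild-type oil libraries, and for 11 neutrophil markers 414 to 3786 CPM in Trem1-deficient CCl4, 1102 to 10662 CPM in wild-type CCl4 and 226 to 1572 CPM in wild-type oil libraries. Genes of the hepatocyte list did not all move alike between Trem1-deficient CCl4 and oil mice. Hp averaged 3000 against 330 CPM and Fgb 1546 against 334 CPM, while Alb averaged 1075 against 1761 CPM and Trf 1937 against 2680 CPM. S100a8 and S100a9 made up most of the neutrophil sum. Between Trem1-deficient and wild-type CCl4 mice, only Camp (4.75 against 4.05 CPM) and Ngp (33.3 against 19.1 CPM) of that list had the higher mean in Trem1-deficient mice. For 10 sinusoidal endothelium markers the sum was 1387 to 5556 CPM in Trem1-deficient CCl4, 1234 to 2373 CPM in wild-type CCl4 and 1064 to 3190 CPM in oil libraries. In bulk RNA, fewer cells of a type and less RNA per cell cannot be told apart, and the part of these shifts in the results below was not tested.

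Added over all 34 members, the level was 5974, 6549, 4354, 4907 and 4169 CPM in Trem1-deficient CCl4 mice 1 to 5, 3597, 5454, 4548, 3485 and 4593 CPM in wild-type CCl4 mice 1 to 5, and 6099, 5121, 7898, 6225 and 7152 CPM in wild-type oil mice 1 to 5. The means were 5191 ± 1035 CPM, 4335 ± 811 CPM and 6499 ± 1063 CPM (SD, n = 5 each) in the same order of groups. All pairs of groups overlap, and within the Trem1-deficient group mice 1 and 2 of the first index series lie above mice 3 to 5 of the second. A pair of membrane proteins dominated the sum: Bst2 and Ifitm3 made up 42.7 to 52.3% of it in Trem1-deficient CCl4 mice, 25.0 to 51.8% in wild-type CCl4 mice and 30.4 to 44.9% in oil mice. The level per member spanned a wide range, from a mean of 1171 CPM over the 15 mice for Bst2 to 3.60 CPM for Mx1. The mean was above 100 CPM for 15 members and below 20 CPM for 9. Of the 33 tested members, 21 had counts in every library and 12 had 0 counts in 1 library or more.

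**Figure D1:**
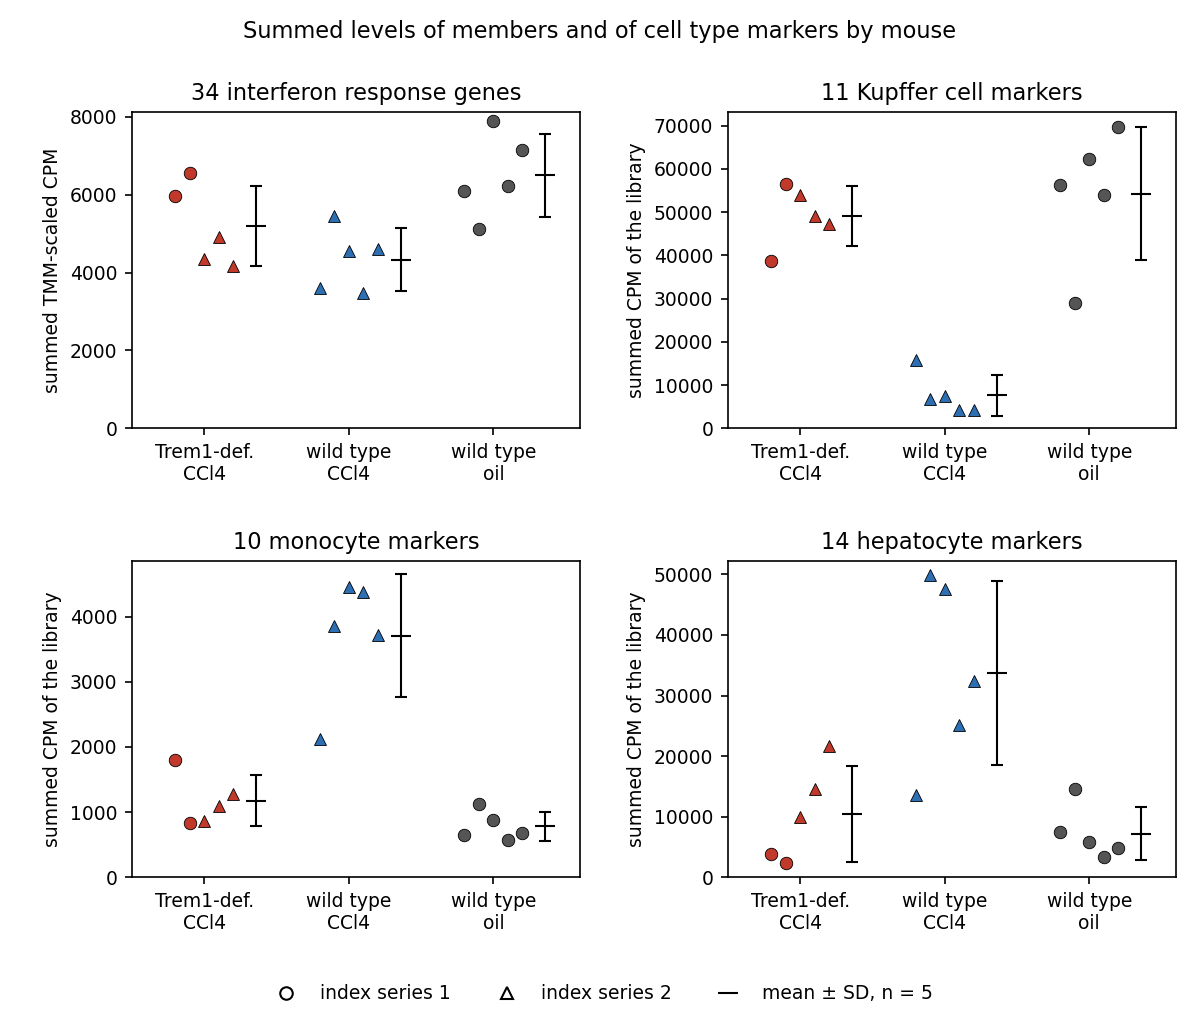
Summed levels (vertical axes) of the 34 interferon response genes in TMM-scaled CPM and of 11 Kupffer cell, 10 monocyte and 14 hepatocyte markers in CPM of the library total, by mouse. Circles are libraries of the first index series, triangles those of the second, and bars the mean with its SD (n = 5). The member sums of the groups overlap, while the Kupffer cell sums of wild-type CCl4 libraries (4155 to 15757 CPM) lie below those of both other groups.

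After CCl4, Trem1-deficient and wild-type cells did not differ past the test in any of the 33 tested members. Bst2, which encodes tetherin, a membrane protein that holds budding viruses at the cell surface, came closest: its mean was 1482 ± 411 CPM in Trem1-deficient CCl4 mice and 640.0 ± 402 CPM in wild-type CCl4 mice (SD, n = 5 each). Its log2 fold change was 1.21 ± 0.34 (SE), with an edgeR adjusted p = 0.0533. Rsad2, which encodes the antiviral enzyme viperin, leaned the other way, with 178 ± 81.3 against 401 ± 184 CPM (log2 fold change -1.18 ± 0.38, edgeR adjusted p = 0.0975). By edgeR's quasi-likelihood test with Benjamini-Hochberg adjustment over all tested genes, 0 members were higher and 0 lower in Trem1-deficient cells, where 0.778% of all tested genes were higher and 1.28% lower. At an unadjusted p under 0.05, 5 were higher and 2 lower, where 6.79% of all tested genes were higher and 8.38% lower. DESeq2 called 1 higher, the sensor gene Dhx58, and 1 lower, Rsad2, where it called 2.27% of all its tested genes higher and 4.53% lower. For no member did the groups stand apart, where 3.42% of all tested genes had every Trem1-deficient mouse above every wild-type mouse and 2.12% had every one below. The median log2 fold change was 0.14 over the members that passed the filter and -0.03 over all tested genes. Setting Mx1 to its bound, given below, cannot move the median of the members, since Mx1 lies far above it either way. The median was -0.13 with the index series as a term, -0.057 within the second series and 0.47 by library totals alone. Of the Kupffer cell markers 9 of 11 were higher in the same comparison, with a median log2 fold change of 2.20. Wild-type CCl4 mouse 1 weighed on these values. Its Kupffer cell markers summed to 15757 CPM, the highest of its group, and its hepatocyte markers to 13656 CPM, the lowest. Without that mouse Bst2 was higher in Trem1-deficient cells (log2 fold change 1.64 ± 0.31, edgeR adjusted p = 0.00194), as was Dhx58 (4.93 ± 1.34, adjusted p = 0.0298), and Rsad2 was lower (-1.39 ± 0.35, adjusted p = 0.0183). Calls rose over all genes as well: that fit called 296 of 9298 tested genes higher and 212 lower, against 70 and 115 of 9001 with every mouse. Bst2 also passed without oil mouse 1 (edgeR adjusted p = 0.0458), oil mouse 2 (adjusted p = 0.0497) or Trem1-deficient mouse 5 (adjusted p = 0.048). Scaled by library totals alone, Bst2 had a log2 fold change of 1.54 ± 0.33 (edgeR adjusted p = 0.00572). With that scaling 211 of all tested genes were higher and 95 lower, against 70 and 115 with TMM.

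After CCl4, wild-type cells had lower levels of 3 members than cells of oil-treated wild-type mice, and no member was higher. Ifi27l2a, an interferon-inducible gene of the ISG12 family, averaged 71.8 ± 37.5 CPM in wild-type CCl4 mice and 444 ± 61.4 CPM in oil mice (SD, n = 5 each), a log2 fold change of -2.63 ± 0.41 (edgeR adjusted p = 0.000124). Irf7 averaged 129 ± 74.1 CPM in wild-type CCl4 mice and 418 ± 84.7 CPM in oil mice (-1.70 ± 0.39, edgeR adjusted p = 0.00694). Bst2 averaged 640.0 ± 402 CPM in wild-type CCl4 mice and 1392 ± 514 CPM in oil mice (-1.12 ± 0.34, edgeR adjusted p = 0.0488). Thus 3 of 33 members were lower where 2.09% of all tested genes were lower, and 0 were higher where 3.04% of all tested genes were higher. At an unadjusted p under 0.05, 1 member was higher and 9 lower, where 10.5% of all tested genes were higher and 8.44% lower. DESeq2 called 0 members higher and 4 lower: Ifi27l2a, Irf7, Dhx58 and Oasl1, without Bst2, where it called 6.86% of all its tested genes higher and 4.33% lower. Every wild-type CCl4 mouse lay below every oil mouse for 4 members, Irf7, Ifi27l2a, Oasl1 and Dhx58, where 3.44% of all tested genes did so, and every mouse lay above for 0 members, where 3.13% of all tested genes did. The median log2 fold change was -0.44 over the members that passed the filter and 0.06 over all tested genes. Of the Kupffer cell markers 10 of 11 were lower in the same comparison, with a median of -2.53. The Bst2 call was at the edge of the threshold. It was lost without oil mouse 3, 4 or 5, Trem1-deficient mouse 1, 3 or 4, or wild-type CCl4 mouse 2, 3, 4 or 5, with log2 fold changes of -1.18 to -0.95 and edgeR adjusted p = 0.0555 to 0.14. It was also lost with RLE size factors (-1.08, edgeR adjusted p = 0.0508) and with only the groups compared in the fit (-1.12, adjusted p = 0.114). With the index series as a term edgeR called none of the 3 members, where 0.133% of all tested genes were lower. The median of the members was then 0.31. Without wild-type CCl4 mouse 1 the fall of Bst2 was -1.55 ± 0.31 (edgeR adjusted p = 0.00174), and Dhx58 was lower as well (-5.44 ± 1.37, adjusted p = 0.0129). That fit called 336 of 9298 tested genes higher and 423 lower. Without wild-type CCl4 mouse 5, Oasl1 was lower (-1.47 ± 0.43, edgeR adjusted p = 0.0419), in a fit that called 277 of 9603 tested genes higher and 224 lower. Of all tested genes 274 were higher and 188 lower with TMM, and 218 were higher and 314 lower by library totals alone.

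Trem1-deficient cells after CCl4, set against cells of oil-treated wild-type mice, differ in genotype and treatment at once. No member passed the test, where 0.178% of all tested genes were higher and 0.0555% lower. At an unadjusted p under 0.05, 0 members were higher and 4 lower, where 2.61% of all tested genes were higher and 2.04% lower. DESeq2 called 1 lower, Ifi27l2a, where it called 0.568% of all its tested genes higher and 0.192% lower. That gene had a log2 fold change of -1.60 ± 0.39 (edgeR adjusted p = 0.0942). It was called without Trem1-deficient mouse 2 (-1.89 ± 0.43, edgeR adjusted p = 0.0411) and without wild-type CCl4 mouse 5 (-1.59 ± 0.36, adjusted p = 0.048). For 4 members, Ifi27l2a, Irf7, Rsad2 and Ifit2, every Trem1-deficient mouse lay below every oil mouse, where 1.27% of all tested genes did so, and for 0 members every mouse lay above, where 1.63% of all tested genes did. The median log2 fold change was -0.45 over the members that passed the filter and 0.02 over all tested genes. All 3 comparisons share groups, so their values are not independent of each other.

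**Figure D2:**
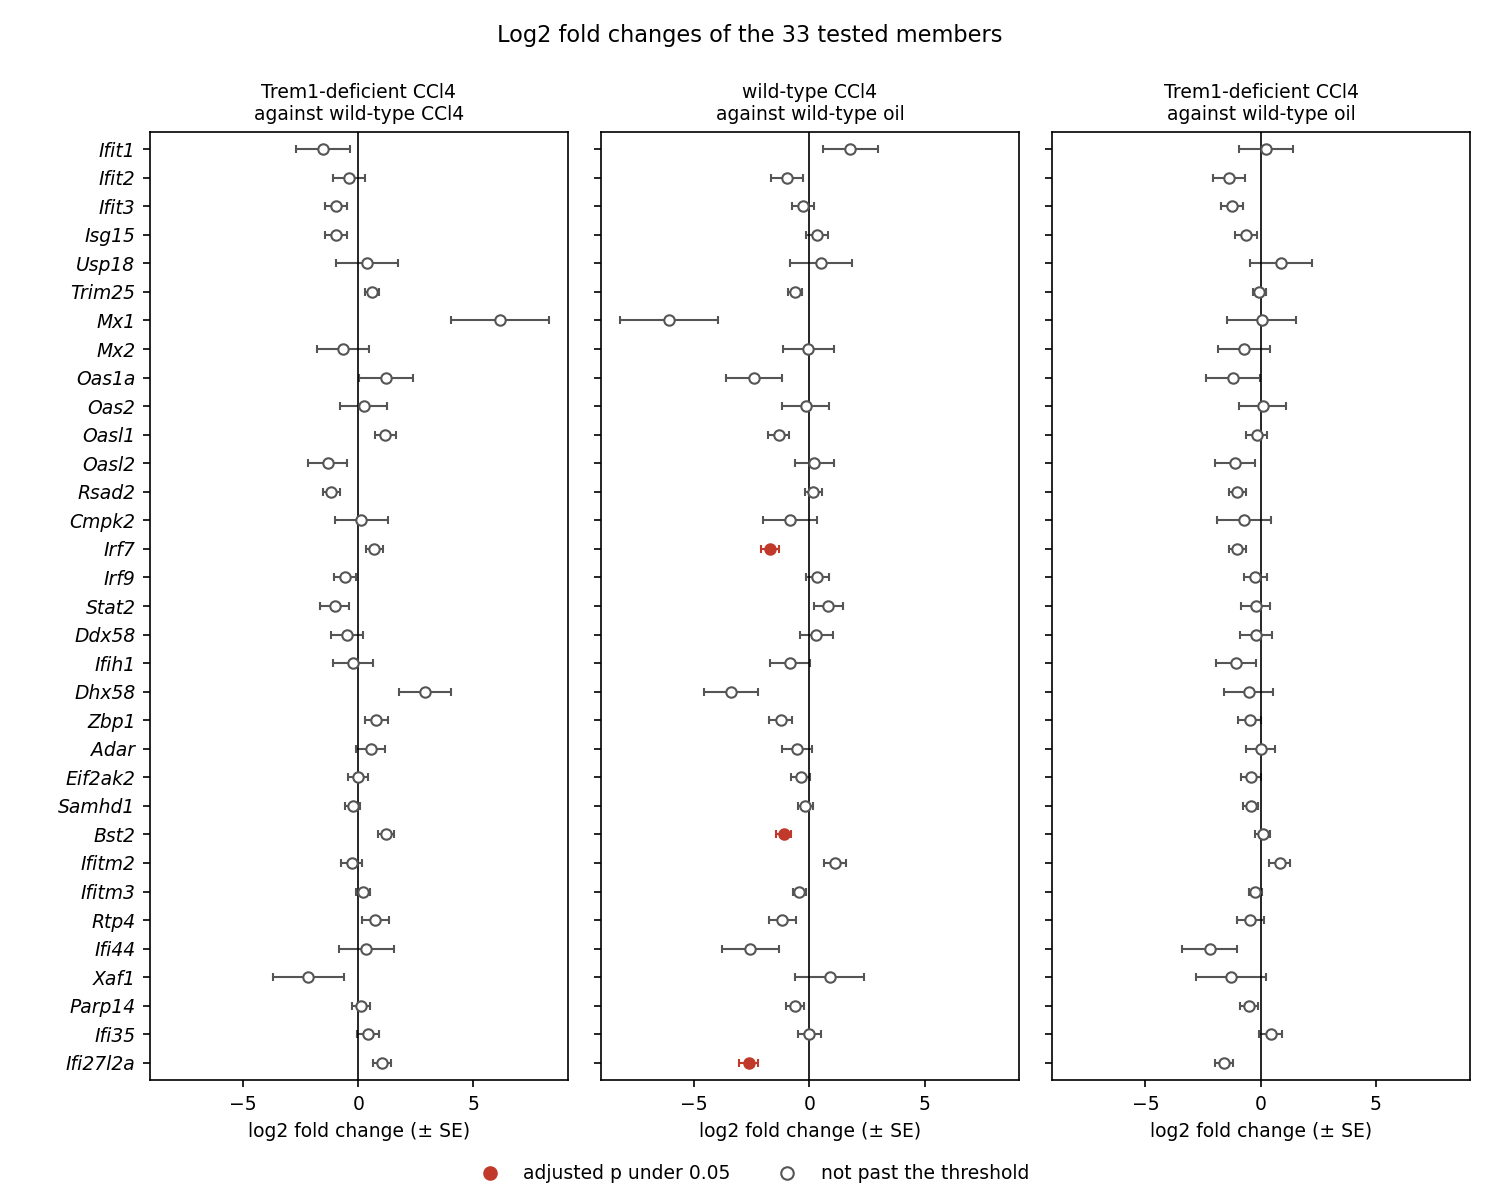
Log2 fold changes (horizontal axes, points with SE bars) of the 33 tested members in the 3 comparisons, in the order of their roles. Filled points passed edgeR's adjusted p under 0.05: Irf7 (-1.70), Bst2 (-1.12) and Ifi27l2a (-2.63) in wild-type CCl4 against wild-type oil, and none in the other 2 panels.

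Of the 3 members that encode transcription factors, 1 was called, Irf7, which was lower in wild-type CCl4 than in oil mice. Irf7 (ENSMUSG00000025498.15, chromosome 7, 141262706 to 141266481, minus strand, GRCm38) encodes the factor that carries the response into further interferon production. Values below are TMM-scaled CPM of mice 1 to 5 in order. Irf7 had 279, 249.6, 87.8, 163 and 264 CPM in Trem1-deficient CCl4 mice, 53.2, 172, 85.9, 98.5 and 237 CPM in wild-type CCl4 mice, and 555, 403, 416, 323 and 395 CPM in wild-type oil mice. Every CCl4 mouse of either genotype lay below every oil mouse, and the CCl4 groups overlapped each other (log2 fold change 0.70 ± 0.38 for Trem1-deficient against wild-type CCl4, edgeR adjusted p = 0.387). Irf9 (ENSMUSG00000002325.15, chromosome 14, 55603571 to 55610030, plus strand, GRCm38) encodes the DNA-binding subunit of ISGF3. Irf9 had 84.5, 102, 62.6, 75.1 and 106 CPM in Trem1-deficient CCl4 mice, 52.5, 163, 68.7, 112 and 250.4 CPM in wild-type CCl4 mice, and 69.5, 204, 65.0, 42.2 and 126 CPM in wild-type oil mice. All 3 groups overlapped, with the highest value in wild-type CCl4 mouse 5. Its log2 fold change was -0.58 ± 0.49 between the CCl4 groups and 0.35 ± 0.49 for wild-type CCl4 against oil, neither past the test. Stat2 (ENSMUSG00000040033.16, chromosome 10, 128270559 to 128292849, plus strand, GRCm38) encodes another subunit of that complex. Stat2 had 60.1, 43.4, 31.7, 35.9 and 21.1 CPM in Trem1-deficient CCl4 mice, 35.9, 58.4, 65.9, 125 and 109 CPM in wild-type CCl4 mice, and 54.5, 5.01, 54.3, 53.8 and 55.4 CPM in wild-type oil mice. Oil mice 1, 3, 4 and 5 had almost the same level and oil mouse 2 lay far below them. Wild-type CCl4 mice 4 and 5 had the highest levels, and the groups overlapped (log2 fold change -1.03 ± 0.64 for Trem1-deficient against wild-type CCl4, edgeR adjusted p = 0.458).

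Promoter sequences from RefSeq (GRCm38.p6, 250 bases before to 50 after the RefSeq start of the gene) were at hand for 25 of the 34 members. Those of Mx1, Mx2, Oas2, Usp18, Dhx58, Rtp4, Zbp1, Parp14 and Ifi27l2a were not used here. The 25 were searched on either strand for GAAA, any 2 bases and GAAA again, a short form of the element that ISGF3 and the IRF proteins bind. It was found in 12 of the 25 members, Ifit1, Ifit3, Isg15, Oas1a, Rsad2, Stat2, Ddx58, Ifih1, Eif2ak2, Bst2, Ifitm2 and Ifitm3, and in 3.99% of the 27025 gene symbols of the same table. In 6 of these members it occurred 2 or more times, in part as overlapping copies. The 160 bases before the start are shown for the called members Bst2 and Irf7 and for Isg15 and Ifit3, which were not called. They read 5′ to 3′ on the strand of the gene, with capitals for every base inside a match on either strand (read from the other strand, the element is TTTC, any 2 bases and TTTC). The regions are chr8:71537473-71537632 (minus strand), chr7:141266425-141266584 (minus strand), chr4:156200819-156200978 (minus strand) and chr19:34583369-34583528 (plus strand).
Bst2: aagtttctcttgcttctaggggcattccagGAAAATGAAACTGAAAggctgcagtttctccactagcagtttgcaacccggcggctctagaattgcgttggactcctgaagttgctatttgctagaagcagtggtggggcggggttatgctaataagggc
Irf7: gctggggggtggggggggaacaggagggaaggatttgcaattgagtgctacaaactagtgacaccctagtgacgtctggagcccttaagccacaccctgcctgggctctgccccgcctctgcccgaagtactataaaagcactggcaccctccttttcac
Isg15: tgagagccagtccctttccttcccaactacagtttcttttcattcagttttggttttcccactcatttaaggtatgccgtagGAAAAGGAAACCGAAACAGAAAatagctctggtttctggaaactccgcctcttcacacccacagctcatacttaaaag
Ifit3: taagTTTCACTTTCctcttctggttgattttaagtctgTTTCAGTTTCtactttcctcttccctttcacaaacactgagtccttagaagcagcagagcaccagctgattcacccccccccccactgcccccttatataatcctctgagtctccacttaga
The Bst2 window held 2 overlapping copies, the Isg15 window 3 overlapping copies and the Ifit3 window 2 separate ones. The letters were not found in the Irf7 window. The Irf7 gene position given above reaches 141266481, so part of the region shown lies inside the gene by that annotation. Less sequence before that gene position was therefore searched. A match describes these letters and does not show binding.

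Among the effectors, the IFIT proteins bind viral RNA and block its translation. Ifit3 (ENSMUSG00000074896.3, chromosome 19, 34583531 to 34588731, plus strand, GRCm38) was the most abundant of the family. Ifit3 had 63.5, 94.8, 46.1, 58.0 and 18.7 CPM in Trem1-deficient CCl4 mice, 42.5, 108, 115, 133 and 151 CPM in wild-type CCl4 mice, and 154, 159, 154, 84.5 and 113 CPM in wild-type oil mice. Wild-type CCl4 mice 2 to 5 lay above every Trem1-deficient mouse, and wild-type CCl4 mouse 1 lay among the Trem1-deficient mice. The log2 fold change of Trem1-deficient against wild-type CCl4 was -0.96 ± 0.48 (edgeR adjusted p = 0.334), and that of wild-type CCl4 against oil was -0.28 ± 0.47 (adjusted p = 0.823). Ifit2 (ENSMUSG00000045932.12, chromosome 19, 34550694 to 34576419, plus strand, GRCm38) encodes a relative that also promotes cell death. Ifit2 had 48.4, 20.3, 15.7, 19.6 and 39.8 CPM in Trem1-deficient CCl4 mice, 9.31, 90.6, 43.9, 38.4 and 8.30 CPM in wild-type CCl4 mice, and 67.6, 92.6, 86.4, 77.8 and 51.1 CPM in wild-type oil mice. Every Trem1-deficient mouse lay below every oil mouse, while the wild-type CCl4 mice ran from below the Trem1-deficient range to within the oil range (Trem1-deficient against oil -1.38 ± 0.69, edgeR adjusted p = 1). Ifit1 (ENSMUSG00000034459.8, chromosome 19, 34640871 to 34650009, plus strand, GRCm38), which recognises RNA caps that lack methylation, was scarce. Ifit1 had 5.68, 25.1, 0.435, 4.90 and 6.45 CPM in Trem1-deficient CCl4 mice, 17.9, 15.1, 50.6, 40.1 and 0 CPM in wild-type CCl4 mice, and 8.46, 11.3, 1.43, 1.92 and 12.9 CPM in wild-type oil mice. Wild-type CCl4 mice 3 and 4 were the highest and mouse 5 of the same group had 0 counts, so the spread within the group covers the other groups (log2 fold change -1.53 ± 1.18 between the CCl4 groups, edgeR adjusted p = 0.591).

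The ISG15 system attaches a ubiquitin-like protein to other proteins and takes it off again. Isg15 (ENSMUSG00000035692.6, chromosome 4, 156199424 to 156200818, minus strand, GRCm38) encodes the modifier. Isg15 had 192, 147, 49.6, 141 and 24.6 CPM in Trem1-deficient CCl4 mice, 146, 426, 273, 173 and 69.2 CPM in wild-type CCl4 mice, and 163, 145, 196, 190.1 and 171 CPM in wild-type oil mice. Oil mice lay close together, Trem1-deficient mice lay within or below their range, with mice 5 and 3 the lowest of all, and wild-type CCl4 mice 2 and 3 lay above every other mouse. The log2 fold change of Trem1-deficient against wild-type CCl4 was -0.97 ± 0.47 (edgeR adjusted p = 0.328). Usp18 (ENSMUSG00000030107.10, chromosome 6, 121245906 to 121270917, plus strand, GRCm38) encodes the protease that removes the modifier and also restrains the interferon receptor. Usp18 had 11.03, 27.1, 20.4, 8.98 and 7.62 CPM in Trem1-deficient CCl4 mice, 0, 0, 45.8, 2.86 and 9.69 CPM in wild-type CCl4 mice, and 12.2, 0, 17.9, 0 and 10.5 CPM in wild-type oil mice. Both wild-type groups held 2 mice with 0 counts, all Trem1-deficient mice had counts, and wild-type CCl4 mouse 3 had the highest level; no comparison passed the test. Trim25 (ENSMUSG00000000275.16, chromosome 11, 88999376 to 89020293, plus strand, GRCm38), an E3 ligase that activates the RNA sensor RIG-I, was the third most abundant member. Trim25 had 317, 492, 348, 445 and 422 CPM in Trem1-deficient CCl4 mice, 374, 312, 201, 173 and 285 CPM in wild-type CCl4 mice, and 546, 234, 466, 439.7 and 409 CPM in wild-type oil mice. The groups overlapped, with wild-type CCl4 mice 3 and 4 below all other mice. Its log2 fold change was 0.59 ± 0.30 for Trem1-deficient against wild-type CCl4 (edgeR adjusted p = 0.35) and -0.64 ± 0.30 for wild-type CCl4 against oil (adjusted p = 0.245).

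Rsad2 (ENSMUSG00000020641.16, chromosome 12, 26442746 to 26456452, minus strand, GRCm38) lies next to Cmpk2 on chromosome 12. Viperin, its product, makes a chain-terminating nucleotide from CTP, and the kinase encoded by Cmpk2 helps supply the CTP. Rsad2 had 255, 192, 96.1, 255 and 90.2 CPM in Trem1-deficient CCl4 mice, 139.6, 635, 341, 496 and 394 CPM in wild-type CCl4 mice, and 516, 284, 415, 258 and 311 CPM in wild-type oil mice. Every Trem1-deficient mouse lay below every oil mouse, and 4 of 5 wild-type CCl4 mice lay above every Trem1-deficient mouse, with mouse 1 within their range. The log2 fold change of Trem1-deficient against oil was -1.01 ± 0.37 (edgeR adjusted p = 0.679). Cmpk2 ranged over 1.63 to 20.4 CPM in Trem1-deficient CCl4 mice, 0 to 31.5 CPM in wild-type CCl4 mice and 8.57 to 22.5 CPM in wild-type oil mice, so the neighbours differed greatly in level. Samhd1 (ENSMUSG00000027639.16, chromosome 2, 157097533 to 157135265, minus strand, GRCm38), an enzyme that breaks down deoxynucleotides and thereby limits viral DNA synthesis, was the fourth most abundant member. Samhd1 had 429, 279.8, 265, 305 and 185 CPM in Trem1-deficient CCl4 mice, 138, 485, 219.5, 491 and 407 CPM in wild-type CCl4 mice, and 313, 377, 452, 439.7 and 388 CPM in wild-type oil mice. The CCl4 groups were spread more widely than the oil group and overlapped it (log2 fold change -0.25 ± 0.33 between the CCl4 groups and -0.18 ± 0.33 for wild-type CCl4 against oil, neither past the test). Isg20, which encodes an RNA exonuclease, was below the filter, with 75 counts over the Trem1-deficient CCl4, 36 over the wild-type CCl4 and 23 over the oil libraries.

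Bst2 and Ifitm3, both membrane proteins, were the most abundant members. Bst2 (ENSMUSG00000046718.8, chromosome 8, 71534255 to 71537456, minus strand, GRCm38) was the first in mean level. Bst2 had 1099, 2022, 1587, 1663 and 1041 CPM in Trem1-deficient CCl4 mice, 1294, 493, 743, 318 and 353 CPM in wild-type CCl4 mice, and 702, 1038, 1988, 1588 and 1642 CPM in wild-type oil mice. Wild-type CCl4 mice 2 to 5 lay below every Trem1-deficient mouse, and wild-type CCl4 mouse 1 lay within the Trem1-deficient range. Trem1-deficient CCl4 and oil mice overlapped widely, with a log2 fold change of 0.09 ± 0.33 (edgeR adjusted p = 1). Bst2 is also abundant in plasmacytoid dendritic cells, of which 6 other markers summed to 4.30 to 41.7 CPM in Trem1-deficient CCl4, 15.2 to 116 CPM in wild-type CCl4 and 0 to 29.2 CPM in wild-type oil libraries. Ly6d made up most of this sum, with means of 12.7, 36.7 and 13.9 CPM in the same order of groups. Siglech had counts in 3 of 15 libraries. Between the CCl4 groups, Ly6d and Ccr9 had the higher mean in wild-type mice. Siglech, Cox6a2, Klk1 and Pacsin1 had it in Trem1-deficient mice. Only 1 of the 6 markers was abundant enough to be tested, so the sum is a weak measure of these cells. Ifitm3 (ENSMUSG00000025492.6, chromosome 7, 141009586 to 141010770, minus strand, GRCm38) encodes a protein of endosomal membranes that blocks the fusion of entering viruses. Ifitm3 had 1453, 1235, 617, 902 and 793 CPM in Trem1-deficient CCl4 mice, 570.4, 1133, 1029, 553 and 1027 CPM in wild-type CCl4 mice, and 1151, 573, 1466, 1209 and 1439 CPM in wild-type oil mice. All groups overlapped, and Trem1-deficient mice 1 and 2 lay above mice 3 to 5. The log2 fold change was 0.21 ± 0.29 between the CCl4 groups and -0.44 ± 0.29 for wild-type CCl4 against oil, neither past the test. Ifitm2 (ENSMUSG00000060591.9, chromosome 7, 140954837 to 140955987, minus strand, GRCm38) encodes a close relative of it. Ifitm2 had 184, 179.9, 213, 74.3 and 75.6 CPM in Trem1-deficient CCl4 mice, 125, 124, 257, 141 and 238 CPM in wild-type CCl4 mice, and 62.9, 26.3, 107, 59.5 and 151 CPM in wild-type oil mice. Wild-type CCl4 mice 3 and 5 were the highest and oil mouse 2 the lowest (wild-type CCl4 against oil 1.11 ± 0.46, edgeR adjusted p = 0.176), the opposite direction to Ifitm3 in the same comparison.

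Ifi27l2a (ENSMUSG00000079017.3, chromosome 12, 103442167 to 103443680, minus strand, GRCm38) gave the smallest p-value of any member. Ifi27l2a had 189.8, 252, 75.2, 67.7 and 145 CPM in Trem1-deficient CCl4 mice, 47.2, 129, 91.6, 45.8 and 45.7 CPM in wild-type CCl4 mice, and 383, 536, 431, 398 and 471 CPM in wild-type oil mice. The oil mice lay close together and above every CCl4 mouse of either genotype. Trem1-deficient mice 1, 2 and 5 lay above every wild-type CCl4 mouse and mice 3 and 4 within their range (log2 fold change 1.03 ± 0.39, edgeR adjusted p = 0.189). With the mouse 1 or mouse 5 libraries of wild-type CCl4 left out, its fall against oil was -2.51 and -2.54.

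**Figure D3:**
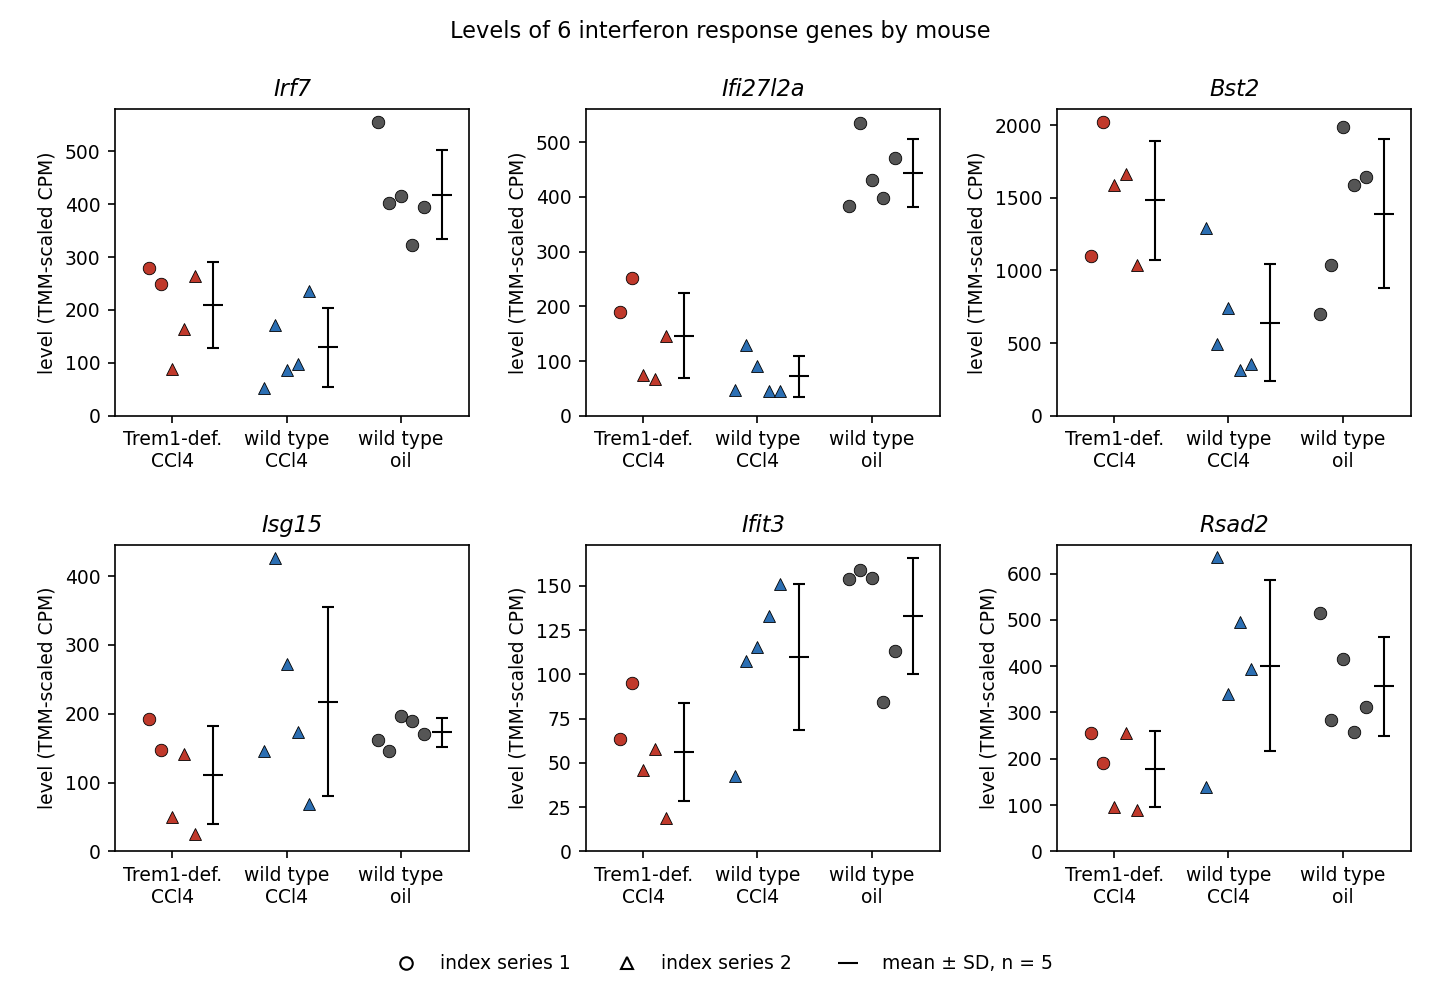
Levels (vertical axes, TMM-scaled CPM) of Irf7, Ifi27l2a, Bst2, Isg15, Ifit3 and Rsad2 in the 5 mice of each group. Circles are libraries of the first index series, triangles those of the second, and bars the mean with its SD. Irf7 and Ifi27l2a of both CCl4 groups lie below all oil mice, while Bst2 averaged 1482 CPM in Trem1-deficient CCl4, 640.0 CPM in wild-type CCl4 and 1392 CPM in oil mice.

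Sensors of nucleic acid were scarcer, and none passed the test in any comparison. Dhx58 ranged over 3.48 to 32.5 CPM in Trem1-deficient CCl4 mice, 0 to 10.6 CPM in wild-type CCl4 mice and 15.3 to 50.7 CPM in wild-type oil mice. Its product, LGP2, regulates the other RNA sensors of its family. Every wild-type CCl4 mouse lay below every oil mouse (log2 fold change -3.41 ± 1.17, edgeR adjusted p = 0.0868), with 19 counts in all over the 5 wild-type CCl4 libraries. Zbp1 ranged over 32.2 to 228 CPM in Trem1-deficient CCl4 mice, 31.2 to 115 CPM in wild-type CCl4 mice and 55.1 to 254 CPM in wild-type oil mice. Zbp1 senses Z-form nucleic acid and can start necroptosis (-1.25 ± 0.51 for wild-type CCl4 against oil, edgeR adjusted p = 0.167). Ddx58 ranged over 18.0 to 51.5 CPM in Trem1-deficient CCl4 mice, 6.68 to 136 CPM in wild-type CCl4 mice and 24.0 to 62.6 CPM in wild-type oil mice. Ddx58 encodes RIG-I. Ifih1 ranged over 19.6 to 36.7 CPM in Trem1-deficient CCl4 mice, 2.77 to 79.5 CPM in wild-type CCl4 mice and 0 to 89.3 CPM in wild-type oil mice. Ifih1 encodes MDA5, a sensor of long double-stranded RNA, and for both of these sensors the groups overlapped. Of the enzymes that act on double-stranded RNA, Eif2ak2 ranged over 75.2 to 114 CPM in Trem1-deficient CCl4 mice, 64.1 to 170.1 CPM in wild-type CCl4 mice and 80.6 to 198 CPM in wild-type oil mice. It encodes PKR, which halts translation. Adar ranged over 43.5 to 95.5 CPM in Trem1-deficient CCl4 mice, 9.73 to 111 CPM in wild-type CCl4 mice and 34.6 to 95.0 CPM in wild-type oil mice. Adar edits adenosines in double-stranded RNA, and neither of these 2 genes had an edgeR adjusted p below 0.698 in any comparison.

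The oligoadenylate synthetases make the messenger that activates RNase L. Oasl1 ranged over 57.8 to 152 CPM in Trem1-deficient CCl4 mice, 20.6 to 67.5 CPM in wild-type CCl4 mice and 105 to 182 CPM in wild-type oil mice. Oasl1 encodes a relative that lacks this activity and limits translation of Irf7 in mice. Its wild-type CCl4 values all lay below its oil values (-1.34 ± 0.46, edgeR adjusted p = 0.0902), and its Trem1-deficient values overlapped both (1.17 ± 0.46 against wild-type CCl4, adjusted p = 0.204). Oasl2 ranged over 0 to 55.9 CPM in Trem1-deficient CCl4 mice, 10.6 to 176 CPM in wild-type CCl4 mice and 24.0 to 71.4 CPM in wild-type oil mice. Oas2 ranged over 8.79 to 64.4 CPM in Trem1-deficient CCl4 mice, 0 to 76.1 CPM in wild-type CCl4 mice and 2.504 to 46.3 CPM in wild-type oil mice. Oas1a ranged over 3.48 to 12.2 CPM in Trem1-deficient CCl4 mice, 0 to 7.44 CPM in wild-type CCl4 mice and 5.64 to 46.3 CPM in wild-type oil mice. For these 3 synthetase family genes the groups overlapped. The MX proteins are GTPases that trap viral components, and C57BL/6 mice are known to carry a defective Mx1. Mx1 had 81 counts over the Trem1-deficient CCl4 libraries, 0 over the wild-type CCl4 libraries and 40 over the oil libraries. Against a floor of 3 counts over the wild-type CCl4 group, it was at least 14.5-fold higher in Trem1-deficient than in wild-type CCl4 libraries (edgeR adjusted p = 0.135). By mouse, the counts of Trem1-deficient mice 1 to 5 were 21, 58, 2, 0 and 0. Nearly all thus came from mice 1 and 2, of the first index series. Without mouse 2 the bound was 5.61-fold. Trem1-deficient mice 3 to 5, of the second series like every wild-type CCl4 mouse, averaged 0.290 CPM. That is below the floor of 0.499 CPM over the wild-type CCl4 group, so the bound does not hold within the second series. With the index series as a term the fitted log2 fold change was 2.36 ± 1.82, adjusted p = 0.701 (edgeR). Against oil libraries, the wild-type CCl4 libraries were at least 12.5-fold lower (edgeR adjusted p = 0.0957), a comparison across the index series. Since 2 Trem1-deficient and 2 oil libraries also had 0 counts, the groups overlapped. Mx2 ranged over 1.63 to 36.6 CPM in Trem1-deficient CCl4 mice, 0 to 87.6 CPM in wild-type CCl4 mice and 0 to 52.8 CPM in wild-type oil mice, with overlap between all groups.

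The other members differ in what they do. Rtp4 ranged over 50.9 to 157 CPM in Trem1-deficient CCl4 mice, 1.38 to 121 CPM in wild-type CCl4 mice and 101 to 183 CPM in wild-type oil mice. Rtp4 encodes a chaperone of receptors that dampens the interferon response in mice, and wild-type CCl4 mouse 5 was the lowest of all. Ifi44 ranged over 0.586 to 21.1 CPM in Trem1-deficient CCl4 mice, 0 to 14.6 CPM in wild-type CCl4 mice and 1.92 to 80.1 CPM in wild-type oil mice. Xaf1 ranged over 0.816 to 18.7 CPM in Trem1-deficient CCl4 mice, 0 to 126 CPM in wild-type CCl4 mice and 0 to 32.6 CPM in wild-type oil mice. Xaf1, an inhibitor of a brake on apoptosis, reached its highest value in wild-type CCl4 mouse 5, while 3 mice of that group had 0 counts. Parp14 ranged over 113 to 232 CPM in Trem1-deficient CCl4 mice, 66.4 to 236 CPM in wild-type CCl4 mice and 98.9 to 320.4 CPM in wild-type oil mice. Ifi35 ranged over 42.4 to 171 CPM in Trem1-deficient CCl4 mice, 59.0 to 195 CPM in wild-type CCl4 mice and 50.7 to 158 CPM in wild-type oil mice. Parp14 transfers ADP-ribose to proteins, and for all of these 5 genes the 3 groups overlapped and no comparison passed the test.

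Transcripts of the type I and type III interferon genes listed were not detected. Of 9 interferon genes listed, 8 (Ifna1, Ifna2, Ifna4, Ifna5, Ifnb1, Ifne, Ifnl2 and Ifnl3) had 0 counts in all 15 libraries, which allows up to 1.00 to 4.15 CPM in a library. Ifng, the type II interferon gene, had 12 counts over the Trem1-deficient CCl4, 4 over the wild-type CCl4 and 6 over the oil libraries. Of 43 genes listed for the interferon pathway, 32 were tested: receptors, signal transducers, IRF factors, Toll-like receptor and DNA sensing genes, and inhibitors. In Trem1-deficient against wild-type CCl4, edgeR called 0 of the 32, with 3 higher and 1 lower at an unadjusted p under 0.05 (all tested genes 6.79% and 8.38%), and DESeq2 called 2 higher (all genes 2.27%). In wild-type CCl4 against oil 2 were lower and 0 higher, where 2.09% of all tested genes were lower and 3.04% higher. At an unadjusted p under 0.05, 5 were higher and 5 lower (all tested genes 10.5% and 8.44%), and DESeq2 called 4 higher and 4 lower (6.86% and 4.33%). For 3, Unc93b1, Ptpn6 and Ifnar2, every wild-type CCl4 mouse lay below every oil mouse (all tested genes 3.44%). For 1, the signal transducer gene Stat3, every one lay above (3.13%). Stat3 averaged 341 ± 70.8 CPM in wild-type CCl4 and 169 ± 33.9 CPM in oil mice, and edgeR did not call it. Unc93b1, which carries Toll-like receptors to endosomes, had 165, 165, 205, 196 and 137 CPM in Trem1-deficient CCl4 mice, 94.4, 101, 69.7, 18.9 and 15.2 CPM in wild-type CCl4 mice and 281, 103, 302, 272 and 341 CPM in oil mice. All wild-type CCl4 mice lay below all mice of both other groups. Its log2 fold change was -2.12 ± 0.47 for wild-type CCl4 against oil (edgeR adjusted p = 0.00516) and 1.53 ± 0.46 for Trem1-deficient against wild-type CCl4 (adjusted p = 0.0741). Ptpn6, a phosphatase that restrains receptor signalling in myeloid cells, averaged 105 ± 39.8 CPM in wild-type CCl4 mice and 278 ± 52.7 CPM in oil mice (-1.41 ± 0.35, edgeR adjusted p = 0.0143). Without oil mouse 4 that call was lost (-1.34, edgeR adjusted p = 0.0508). With the index series as a term both calls were lost, with -2.23 (edgeR adjusted p = 0.492) for Unc93b1 and -0.98 (adjusted p = 0.933) for Ptpn6. With the term, 4 of the 32 were higher and 1 lower at an unadjusted p under 0.05 (all tested genes 3.63% and 3.10%). In Trem1-deficient CCl4 against oil 0 of the 32 were called, with 3 higher and 0 lower at an unadjusted p under 0.05 (all tested genes 2.61% and 2.04%), and DESeq2 called 0.

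Of the interferon receptor genes, edgeR called neither Ifnar1 nor Ifnar2 in any comparison. Ifnar2 averaged 236 ± 38.9 CPM in Trem1-deficient CCl4, 135 ± 76.9 CPM in wild-type CCl4 and 347 ± 83.4 CPM in oil mice, with every wild-type CCl4 mouse below every oil mouse (-1.35 ± 0.43, edgeR adjusted p = 0.064). Ifnar1 averaged 105 ± 19.9 CPM in Trem1-deficient CCl4, 188 ± 108 CPM in wild-type CCl4 and 160.4 ± 83.6 CPM in oil mice, with overlap. Of 38 further interferon-stimulated genes listed, 34 were tested. In wild-type CCl4 against oil 3 fell, where 2.09% of all tested genes were lower: Ifi203, a DNA sensor of the PYHIN family (-1.27 ± 0.33, edgeR adjusted p = 0.0192), Slfn5, a Schlafen gene (-1.08 ± 0.31, adjusted p = 0.0369), and Psmb9, a subunit of the immunoproteasome (-1.44 ± 0.42, adjusted p = 0.0438). In the same comparison 1 rose, where 3.04% of all tested genes were higher: Ifitm1, a relative of Ifitm3 (2.98 ± 0.77, edgeR adjusted p = 0.0178). Its levels were 43.8, 42.7, 26.96, 13.1 and 14.1 CPM in Trem1-deficient CCl4, 29.3, 215, 269, 252 and 8.30 CPM in wild-type CCl4 and 32.9, 2.504, 22.1, 25.9 and 14.3 CPM in oil mice. Wild-type CCl4 mice 2, 3 and 4 were thus far above all other mice, and mice 1 and 5 of that group lay within the range of the rest. Neutrophil markers moved in the same mice, with summed levels of 6723, 6743 and 10662 CPM in mice 2, 3 and 4, against 1322 and 1102 CPM in mice 1 and 5. Their part in the rise was not tested. The Psmb9, Slfn5, Ifi203 and Ifitm1 calls each ended on leaving out single mice, Psmb9 on 10 of the 15, Slfn5 on 5, Ifi203 on 3 and Ifitm1 on 3. With the index series as a term none of these 4 was called by edgeR. Without the term, wild-type CCl4 against oil had 1 of the 34 higher and 10 lower at an unadjusted p under 0.05 (all tested genes 10.5% and 8.44%). DESeq2 called 1 higher and 7 lower (6.86% and 4.33%). For 7 every wild-type CCl4 mouse lay below every oil mouse, and for 0 above (3.44% and 3.13%). The median log2 fold change was -0.87, against 0.06 over all tested genes. With the term, 1 was higher and 0 lower at an unadjusted p under 0.05 (3.63% and 3.10%). Both other comparisons called 0 of the 34 by edgeR. In Trem1-deficient against wild-type CCl4, 1 was higher and 2 lower at an unadjusted p under 0.05 (all tested genes 6.79% and 8.38%). DESeq2 called 0 higher and 1 lower there (2.27% and 4.53%). In Trem1-deficient CCl4 against oil, 0 were higher and 1 lower at an unadjusted p under 0.05 (2.61% and 2.04%). DESeq2 called 0 in either direction there (0.568% and 0.192%).

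Within the Trem1-deficient group, which alone spans both index series, most members had lower levels in the second series, and none passed the test. The series differ in sex-linked transcripts as well. A difference between them, or a fitted series term, can stand for either, and which of them was not tested. The 3 mice of the second series lay below both mice of the first for 12 of the 33 tested members, where 11.7% of all tested genes did so, and above both for 0 members, where 10.9% of all tested genes did. Those 12 were Ifit3, Isg15, Mx1, Mx2, Oasl2, Cmpk2, Stat2, Zbp1, Ifitm3, Ifi44, Ifi35 and Ifi27l2a. Isg15 averaged 71.8 CPM in the 3 mice of the second series and 169 CPM in the 2 of the first, and Ifi27l2a 96.1 and 221 CPM. The fitted series term was below 0 for 29 of the 33 and above 0 for 4, with a median of -0.62 against 0.01 over all tested genes. By edgeR it passed for 0 members, where 0.0555% of all tested genes were higher and 0.0111% lower, and 2 members, Mx1 and Ifi27l2a, were lower at an unadjusted p under 0.05, where 2.09% of all tested genes were higher and 0.611% lower. Hepatocyte markers moved with the series in the same mice: they summed to 9926, 14508 and 21596 CPM in mice 3 to 5, against 3828 and 2399.9 CPM in mice 1 and 2. Markers of 3 other cell types were lower in mice 3 to 5 than in mice 1 and 2. Plasmacytoid dendritic cell markers, of which Ly6d had the highest mean, summed to 19.6, 5.60 and 4.30 CPM in mice 3 to 5 against 41.7 and 30.1 CPM in mice 1 and 2. Sinusoidal endothelium markers summed to 3590.1, 1387 and 2449 CPM in mice 3 to 5 against 4007 and 5556 CPM in mice 1 and 2. B cell markers summed to 30.4, 40.8 and 3.07 CPM in mice 3 to 5 against 67.9 and 58.2 CPM in mice 1 and 2. The part of these 4 lists in the difference was not tested.

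When index series was added to the model, where the Trem1-deficient mice alone inform it, wild-type CCl4 against oil had 0 members higher, where 0.278% of all tested genes were higher, and 0 lower, where 0.133% of all tested genes were lower. At an unadjusted p under 0.05, 1 member was higher and 1 lower, where 3.63% of all tested genes were higher and 3.10% lower. The log2 fold changes were -1.43 ± 0.66, adjusted p = 0.684 for Ifi27l2a, -1.07 ± 0.68, adjusted p = 0.927 for Irf7 and -0.99 ± 0.60, adjusted p = 0.889 for Bst2 (edgeR). The value of 9 members changed sign, 8 of them to above 0, and the median over the tested members was 0.31. Between the CCl4 groups, Bst2 had 1.16 ± 0.38, adjusted p = 0.171 with the term (edgeR). Within the second series alone, with Trem1-deficient mice 3 to 5 against all wild-type CCl4 mice, it had a log2 fold change of 1.17 (edgeR adjusted p = 0.294).

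**Figure D4:**
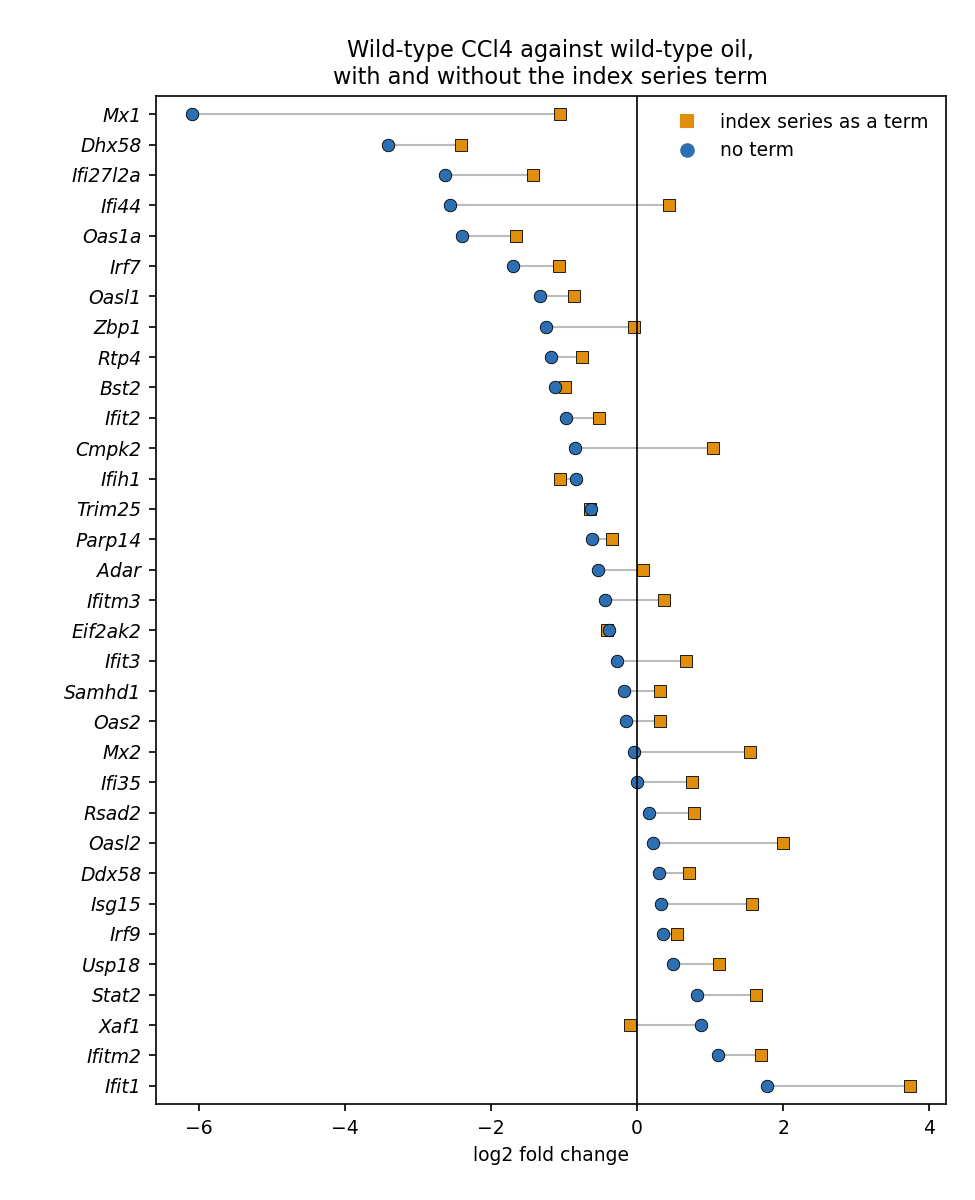
Log2 fold changes (horizontal axis) of the 33 tested members in wild-type CCl4 against wild-type oil, from the fit with the index series as a term (squares) and without it (circles), joined by a line for each gene. With the term 18 members lie above 0 and 15 below, and Ifi27l2a, Irf7 and Bst2 stay below 0. The term divides the libraries by sex-linked transcripts as well.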

How the data were processed

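RNA of each mouse was made into 3′ tag libraries (Lexogen QuantSeq), per the labels' protocols, so a count stands for a read near a transcript's 3′ end and needs no length correction. The authors deposited raw counts of reads per gene in 1 table, 1 column per mouse, merging the 4 lanes listed for each. Per the submitters' processing notes, Trimmomatic, STAR 2.5.1a, Partek 6.6 and mm10 were used. No source used here gives the annotation or strand setting, so overlapping or antisense genes, and reads shared by near-identical relatives (the Ifit, Oas, Mx, Ifitm and Ifi27l2 families), are uncertain. Depth was 812320 to 2593004 gene counts per library, and 4 tally lines were left out. Floors cover counting error only.

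The test was that of edgeR 4.0.16, run under R 4.3.3 (TMM, filterByExpr by group, robust quasi-likelihood F-test, 1 fit of 15 mice, 12 residual degrees of freedom, biological coefficient of variation 0.888). Benjamini-Hochberg adjusted p under 0.05 over 9001 genes was the threshold. The code was tested on simulated data. Alternatives were RLE factors, library totals, no filter, DESeq2 1.42.0, fewer groups, index series, replicate block and leaving out each mouse. Marker sums are CPM of gene counts. Mice of a group are separate animals by label. Gene positions are from GENCODE M21 (GRCm38), matched by symbol for 34 of 34 members. Members, lists and tests were chosen with earlier results of these data known. Named were called members, 11 listed members, the 5 most abundant, called pathway and interferon-stimulated genes (8 at most per list), and members under the filter.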

Additional observations from a re-analysis of the deposited data

Results flagged for a closer look

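Within groups of 5 mice, a value was marked where its gap to the nearest other mouse exceeded Dixon's 95% critical value for the range. Of 101 gene and group combinations with any spread, 9 were marked (8.91%), where chance marks about 1 in 20. Stat2 had 5.01 CPM in oil mouse 2, whose nearest neighbour had 53.8 CPM. Xaf1 had 18.75 CPM in Trem1-deficient CCl4 mouse 5 (nearest 5.35 CPM) and 125.9 CPM in wild-type CCl4 mouse 5 (nearest 2.01 CPM). Wild-type CCl4 mouse 3 was marked for 3 genes: Usp18 with 45.8 CPM (nearest 9.69 CPM), Cmpk2 with 31.5 CPM (nearest 5.98 CPM) and Ifi35 with 195 CPM (nearest 83.6 CPM). Ifit1 had 25.1 CPM in Trem1-deficient CCl4 mouse 2 (nearest 6.45 CPM). Dhx58 had 10.6 CPM in wild-type CCl4 mouse 1 (nearest 1.15 CPM), and Oasl1 had 182 CPM in oil mouse 1 (nearest 123 CPM).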

How the results depend on the processing

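The counts over all tested genes to set beside the calls in this paragraph are given by setting in the next. No member was called higher in wild-type CCl4 against oil, or in Trem1-deficient CCl4 against oil, under any alternative run. In Trem1-deficient against wild-type CCl4, 1 member was higher by library totals, without the filter and by DESeq2 (0 to 2 on leaving out a mouse), and 1 was lower without the filter and by DESeq2 (0 to 1). Pathway calls there were 2 by library totals, 1 without the filter and 2 by DESeq2 (0 to 1), and other interferon-stimulated calls 1 without the filter and 1 by DESeq2 (0 to 1). In wild-type CCl4 against oil, lower members numbered 0 with the series term (2 to 4 on leaving out a mouse). Pathway calls were 4 without the filter, 8 by DESeq2 and 0 with the series term (1 to 5), and other interferon-stimulated calls 2 by RLE, 7 by library totals, 8 by DESeq2, 2 with only the groups compared and 0 with the series term (0 to 6). The median was 0.31 with the series term and -0.87 with the replicate block. In Trem1-deficient CCl4 against oil, 1 member was lower without the filter, by DESeq2, with only the groups compared and with the replicate block (0 to 1), and the median was -0.031 with the series term and -0.013 within 1 series. The median of Trem1-deficient against wild-type CCl4 ran from -0.13 (series term) to 0.47 (replicate block), and from -0.084 to 0.32 on leaving out a mouse. The 15 same-numbered pairs of mice had correlations of their deviations from -0.06 to 0.04 and 4 of 15 correlated best with their own number. No pairing by number was seen in these values, and whether mice shared a day of preparation was not tested. The mouse number as a replicate block gave Ifi27l2a -1.73 (edgeR adjusted p = 0.0358) in Trem1-deficient CCl4 against oil. It ended the Bst2 (-1.21, adjusted p = 0.0743), Ifitm1 (2.62, adjusted p = 0.0781) and Psmb9 (-1.48, adjusted p = 0.0758) calls of edgeR in wild-type CCl4 against oil and no other named call of that comparison.

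Values that no fit called changed sign as follows; the cause was not tested. In Trem1-deficient against wild-type CCl4, Ifitm2 was 0.028 and Samhd1 0.003 by library totals, and Ifitm3 -0.16 with the series term and -0.15 within 1 series. In wild-type CCl4 against oil, the series term gave Ifit3 0.68, Ifitm3 0.37 and Samhd1 0.31, and the block Usp18 -0.0017. In Trem1-deficient CCl4 against oil, Stat2 was 0.21 with the series term and 0.23 within 1 series, Ifitm3 0.20 and 0.22, Ifit1 -0.031 with the block and Trim25 0.029 by library totals. On leaving out a mouse, Ifit2 ran from -0.67 to 0.20 in Trem1-deficient against wild-type CCl4. In wild-type CCl4 against oil Irf9 ran from -0.071 to 0.77, Isg15 from -0.067 to 0.52, Rsad2 from -0.064 to 0.38, Samhd1 from -0.33 to 0.020 and Usp18 from -1.43 to 0.99. In Trem1-deficient CCl4 against oil Bst2 ran from -0.077 to 0.26, Ifit1 from -0.71 to 0.58, Irf9 from -0.43 to 0.18 and Trim25 from -0.20 to 0.065. Over all tested genes, the settings other than leaving out a mouse that moved a count by over 1.5 times gave these counts (higher, lower), beside the library totals given above. Trem1-deficient against wild-type CCl4 had 161 and 402 of 16587 without the filter and 223 and 445 of 9834 by DESeq2. It had 35 and 99 of 8224 with only the groups compared, 37 and 40 of 9001 with the series term and 17 and 40 of 8729 within 1 series. Wild-type CCl4 against oil had 522 and 291 of 16587 without the filter and 675 and 426 of 9834 by DESeq2. It had 214 and 110 of 7198 with only the groups compared and 25 and 12 of 9001 with the series term. Trem1-deficient CCl4 against oil (16 and 5 of 9001 with TMM) had 44 and 29 of 16587 without the filter and 59 and 20 of 10393 by DESeq2. It had 15 and 10 of 8362 with only the groups compared and 9 and 13 of 9773 within 1 series. Of 9001 it had 6 and 5 with the series term and 13 and 8 with the block. Smaller moves, also of 9001, came with RLE: 67 and 146, 296 and 168, and 16 and 6 in the 3 comparisons in this order. The block gave 72 and 86 in the first and 187 and 178 in the second. On leaving out a mouse the counts ran over 35 to 296 and 52 to 212 in Trem1-deficient against wild-type CCl4, 180 to 336 and 115 to 423 in wild-type CCl4 against oil, and 7 to 22 and 4 to 9 in Trem1-deficient CCl4 against oil. Without wild-type CCl4 mouse 1 they were 296 and 212 in the first and 336 and 423 in the second, and without Trem1-deficient mouse 2 they were 35 and 52 in the first. Depth limits members near the floor (Mx1, Isg20, Oas1a, Cmpk2). Library totals moved the median of all genes to 0.26, -0.13 and 0.11 in the 3 comparisons, and RLE to -0.11, 0.11 and 0.00.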
